A study of Mus musculus with 12 samples.

Results

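Glycolysis and the citric acid cycle were followed here through 43 genes, chosen by name as the enzymes and carriers that take glucose to pyruvate, lactate and carbon dioxide, with 4 genes of the pentose phosphate pathway. Of these, 39 were measured, among 18193 genes in all, each by its brightest probe set that carries 1 gene symbol. Gpi1, Eno1 and G6pdx had no such probe set in the annotation used, and Gapdh had only probe sets shared with other symbols, so these 4 genes are not analysed here. The study asked how expression changes as progenitors pass from the pre-pro-B to the pro-B stage. It used 12 Affymetrix arrays in 4 groups of 3. EBF1 cells were pre-pro-B cells of Ebf1-/- C57BL/6 mice transduced with the Mig-EBF1 retrovirus, PAX5 cells were the same progenitors with the Mig-PAX5 retrovirus, and control cells carried the empty MigR1 retrovirus. EBF1 and control arrays form set 1, and PAX5 and control arrays form set 2. Every group lacked Ebf1 and grew over OP9 cells, a stromal line from mouse marrow. The medium held 4% serum, 5 ng/ml IL-7, 10 ng/ml SCF and 10 ng/ml Flt3L, and each group was sorted for the viral GFP after 2 days. The protein came from the virus and not from the cell's own locus. The labels do not say whether arrays of a group came from separate cultures or animals, so the p-values measure only how far these arrays scatter, and that scatter may be technical.

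Glycolysis splits glucose into pyruvate in the cytosol. Pyruvate is then either reduced to lactate and exported, or burned in mitochondria through pyruvate dehydrogenase and the citric acid cycle, while the pentose phosphate pathway branches off to make ribose and NADPH. Several steps have isoforms with different regulation, and low oxygen (through HIF1) and growth signals (through Myc) are known to raise many glycolytic genes together. In B-lineage leukaemia cells PAX5 is known to limit glucose uptake.

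The control arrays that carry the same number in both sets, like PAX5 arrays 2 and 3, differed far less than other replicates (robust SD of log2 values 0.0392 to 0.0942 for equal control numbers and 0.0774 for the PAX5 pair, against 0.287 to 0.374 and 0.211 to 0.359). They were therefore counted as 1 hybridisation each, though the labels list them as separate replicates and their values are not identical. This leaves 3 EBF1, 2 PAX5 and 3 control samples. Values are intensities, and changes are on the log2(intensity + 16) scale, which understates changes of dim genes. The median intensity of an array was 55.1 to 60.6 (set 1) or 65.3 to 68.9 (set 2). Pax5 stood 5.67 higher in PAX5 cells on the log2 scale (SE 0.27, limma adjusted p = 4.39e-05), while the Ebf1 probe sets, whose place relative to the deletion is not given, check nothing. Of 6 measured B-lineage markers, 5 were higher with EBF1 at a limma adjusted p under 0.05, as 0.192% of all genes were. With PAX5 1 was higher at that threshold, as 0.797% of all genes were. By direction alone, 6 were higher with EBF1 and 5 with PAX5. Of the lymphoid progenitor markers all 6 were measured and summed to 13611 to 13769 in EBF1 arrays against 12833 to 19986 in set 1 controls, and to 13055 to 14982 in PAX5 arrays against 12705 to 19641 in set 2 controls.

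Of the 39 genes, Eno2 alone passed the test in any comparison. With EBF1, 0 of 39 genes passed limma's test at an adjusted p of 0.05, where 40 of 18193 genes did (0.22%, with 0.192% higher and 0.0275% lower), or 10 genes and again 0 of the 39 with equal numbers as a block. At an unadjusted p under 0.05, 2 were higher (6.29% of all genes) and 2 lower (5.33%), in sum 10.3% of the 39 against 11.6% of all genes. With the block 2 were higher (Pfkfb3 and Dlat, 8.15% of all genes) and 2 lower (Pfkm and Eno2, 6.35%), in sum 10.3% against 14.5%. Leaving out the arrays numbered 2 of control and EBF1 was an alternative chosen after seeing the data. It gave 5 higher (Slc2a1, Hk2, Pfkfb3, Ldhb and Dlat, 7.21% of all genes) and 2 lower (Pfkm and Eno2, 4.07%). In sum this was 17.9% of the 39 against 11.3% of all genes, and 0 passed after adjustment. In the main fit the median log2 change was 0.02, beside 0.01 over all genes, and 35 of 39 genes stayed within 0.5 of the controls. With PAX5, 1 of 39 rose, the enolase gene Eno2, where 159 genes passed (0.874%, with 0.797% higher and 0.077% lower), or 251 with the block. At an unadjusted p under 0.05, 1 was higher (5.33% of all genes) and 3 lower (4.13%), in sum 10.3% against 9.45% of all genes. With the block 2 were higher (Eno2 and Ldhb, 7.8% of all genes) and 7 lower (Hk1, Pfkm, Pfkp, Aldoa, Pgk1, Pkm and Idh2, 6.56%). In sum this was 23.1% of the 39 against 14.4% of all genes, and none of the 7 passed after adjustment. The PAX5 block entered PAX5 arrays 2 and 3 as separate samples, so its counts and p-values treat these repeats as independent.

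**Figure D1:**
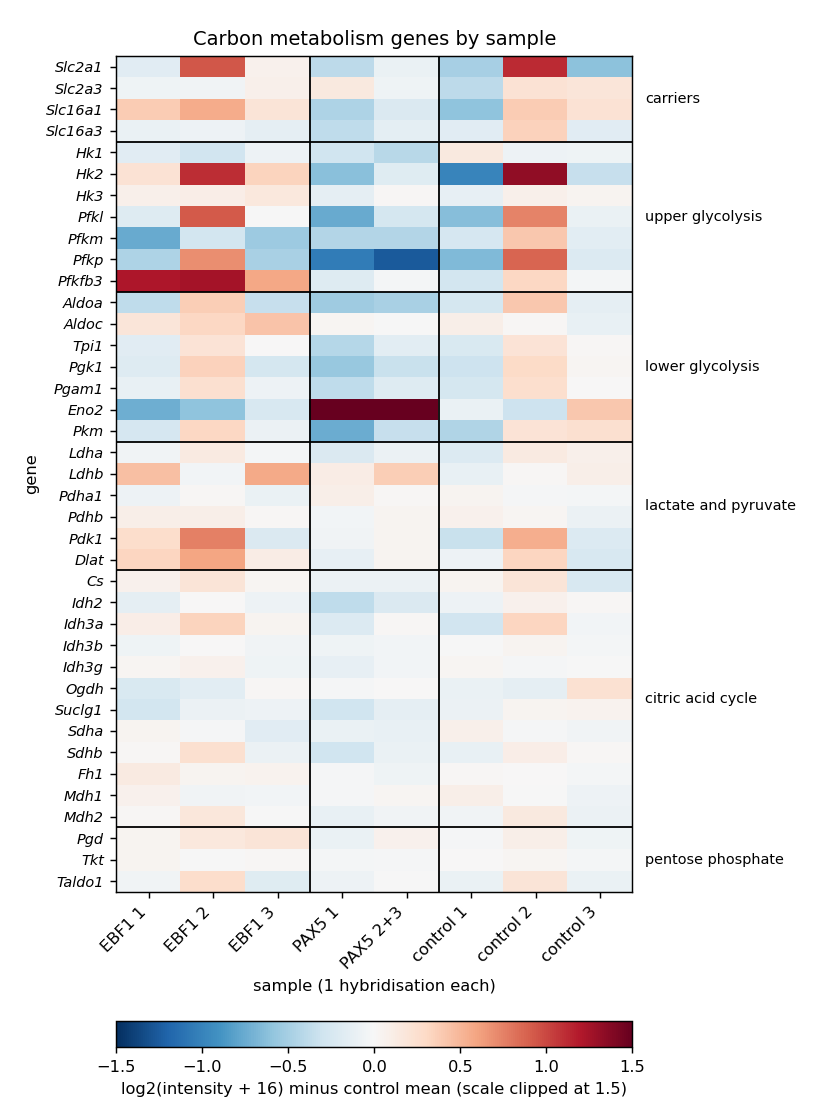
Values of the 39 measured genes, grouped by role, in 3 EBF1, 2 PAX5 and 3 control samples. Colour is log2(intensity + 16) minus the mean of the controls, after the offset between sets is removed, clipped at 1.5. Slc2a1, Hk2, Pfkl and Pfkp are high in EBF1 array 2 and control array 2, Pfkfb3 is high in all 3 EBF1 samples, Eno2 in both PAX5 samples, and citric acid cycle rows are pale throughout.

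PAX5 cells lay slightly lower over most of the list. Of 39 genes 32 were below the controls (82.1%, against 51.8% of all genes), with a median log2 change of -0.10 beside -0.01. This count rested on control array 2: without it 23 of 39 were lower and the median was -0.04. In 8 genes every PAX5 array was below every set 2 control array (20.5%, against 8.95% of all genes), and these were Hk1, Pfkm, Pfkp, Aldoa, Pgk1, Idh2, Suclg1 and Sdha. Eno2 was the 1 gene with every PAX5 array above (9.34% of all genes). With EBF1, Pfkfb3, Aldoc and Fh1 lay above every set 1 control array (7.67% of all genes), and Hk1 and Pfkm lay below (6.76%). PAX5 arrays 2 and 3, counted as 1 hybridisation in the tests, both count in these overlaps.

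The EBF1 and PAX5 changes share the same control samples as counted here, so their difference was tested in its own right. It passed for 1 of 39 genes, again Eno2, where 353 genes passed (1.94%, with 0.588% higher and 1.35% lower), or 207 with the block. At an unadjusted p under 0.05 it was positive for 3 (8.79% of all genes) and negative for 1 (8.22%), in sum 10.3% against 17% of all genes. With the block it was positive for 5 (Pfkl, Pfkp, Pfkfb3, Pkm and Dlat, 6.54% of all genes) and negative for Eno2 (6.47%), in sum 15.4% against 13%. This block fit entered the control arrays of both sets, and PAX5 arrays 2 and 3, as separate samples. Its counts and p-values therefore treat these repeats as independent. The change was higher with EBF1 than with PAX5 in 33 of 39 genes (84.6%, against 53.5% of all genes), and the median difference was 0.17, beside 0.02. The median difference was 0.75 in upper glycolysis, 0.34 in carriers, 0.30 in lower glycolysis and 0.10 in the citric acid cycle. The first 2 were smaller without EBF1 array 2, at 0.41 in upper glycolysis and 0.17 in carriers, and carriers stood at 0.21 without PAX5 array 1. In RNA of sorted but unseparated cells, fewer cells of a type and less RNA per cell cannot be told apart.

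**Figure D2:**
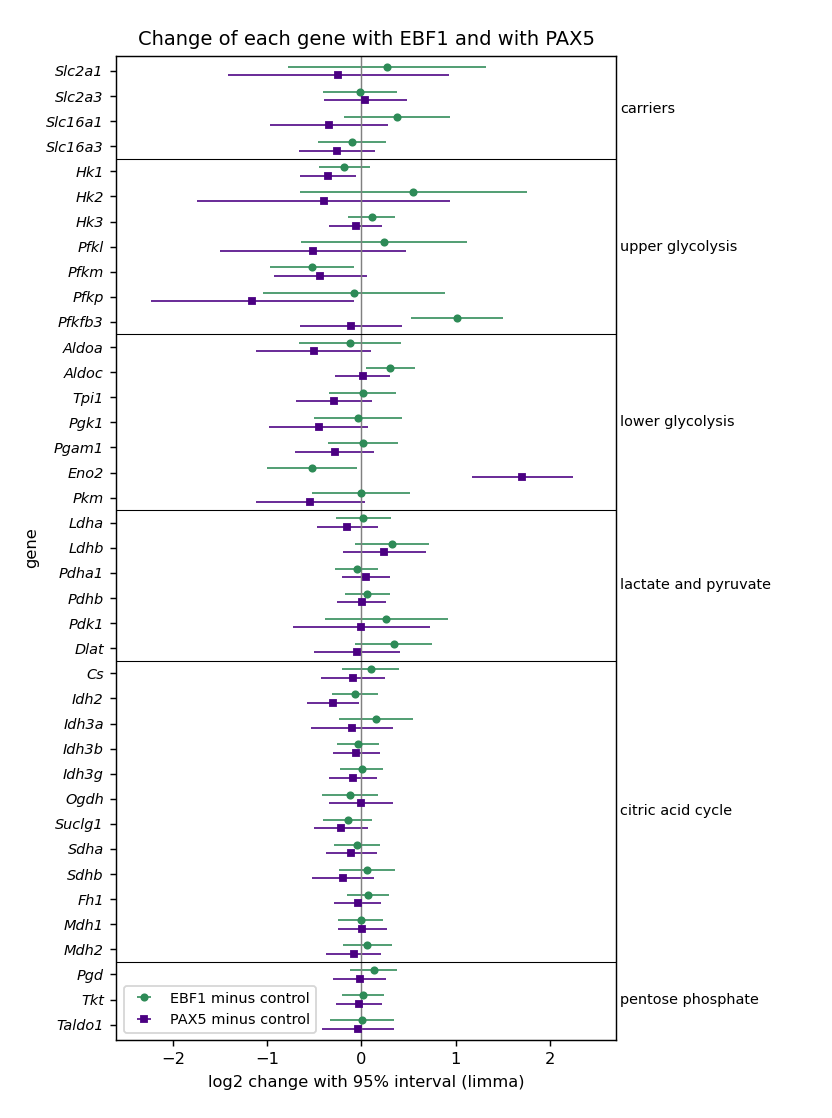
Log2 change of each measured gene against the controls of its own set, with EBF1 (green circles) and with PAX5 (purple squares). Lines are 95% intervals from limma. Eno2 stands out at 1.71 with PAX5 and Pfkfb3 at 1.02 with EBF1, and intervals are widest for Hk2, Slc2a1, Pfkp and Pfkl.

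Among the carriers, 0 of 4 passed in any comparison. Slc2a1, the main glucose carrier of proliferating blood cells, read 886, 1914 and 1041 in EBF1 arrays 1, 2 and 3, against 699.7, 2247 and 629 in the set 1 controls. It read 803, 1029.7 and 958 in PAX5 arrays, against 747, 2256 and 706 in the set 2 controls. Array 2 was the highest of both the EBF1 and the control arrays, and the groups overlapped. The log2 change was 0.27 (SE 0.46, adjusted p = 0.88) with EBF1 and -0.25 (SE 0.51, adjusted p = 0.95) with PAX5, and the PAX5 value turned to 0.29 without control array 2. The EBF1 value was 0.85 without control array 2, 0.02 without control array 1, -0.05 without control array 3 and -0.06 without EBF1 array 2. With the arrays numbered 2 of control and EBF1 both left out, it was 0.52 (limma unadjusted p = 0.019, adjusted p = 0.35). With equal numbers as a block it was 0.27 (limma unadjusted p = 0.2, adjusted p = 0.55). Slc2a3, a glucose carrier of high affinity, read 636, 639 and 700.4 in EBF1 arrays against 498, 794 and 741 in set 1 controls, and 788, 657 and 708 in PAX5 arrays against 541, 814 and 820.4 in set 2 controls. Its changes were -0.01 and 0.04, and the groups overlapped.

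Lactate leaves cells through monocarboxylate carriers. Slc16a1 read 2018, 2288 and 1773 in EBF1 arrays, against 1000.05, 2054 and 1801 in set 1 controls, and 1156, 1389 and 1351 in PAX5 arrays, against 1058, 2062 and 1863 in set 2 controls. Control array 1 was the low sample in both sets. The changes were 0.38 with EBF1 and -0.34 with PAX5, and their difference was 0.72 (SE 0.27, adjusted p = 0.23). Slc16a3, the lactate exporter of strongly glycolytic cells, was near the floor: it read 1.35, 1.68 and 1 in EBF1 arrays against 1.13, 6.08 and 1 in set 1 controls, and 6.41, 11.8 and 9.04 in PAX5 arrays against 8.77, 23.4 and 9.15 in set 2 controls. Values this dim have no order, and no fold is given.

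Upper glycolysis held Pfkfb3, the gene with the largest EBF1 change among the 39. Pfkfb3, which makes the fructose 2,6-bisphosphate that activates phosphofructokinase, read 379.8, 389 and 239 in EBF1 arrays 1, 2 and 3, against 124, 198 and 149 in set 1 controls. All 3 EBF1 arrays were above all 3 controls. The change was 1.02 (SE 0.21, adjusted p = 0.13), a 2.02-fold ratio on that scale. In PAX5 arrays it read 151, 167 and 174, against 143, 215 and 173 in set 2 controls, and the groups overlapped at -0.11. The difference of the changes was 1.13 (SE 0.24, adjusted p = 0.055). EBF1 array 3 was the lowest of its group. Without it the EBF1 change was 1.23 (adjusted p = 0.015) and the difference 1.34 (adjusted p = 0.011). In that fit 406 genes passed with EBF1, against 40 in the main fit. Over 18 alternatives the EBF1 change ran from 0.69 to 1.23 and passed in 2, and the difference passed in 3. With equal numbers as a block the EBF1 change had an adjusted p of 0.2. The other Pfkfb3 probe set, which is dimmer, stood at 0.37 with EBF1. Summed stroma markers were 13506 on EBF1 array 3 against 2241 and 3722 on the other EBF1 arrays, and 1959 to 2741 in set 1 controls. They were 1391 to 2699 in PAX5 arrays against 2114 to 3100.3 in set 2 controls, and the part of stroma in this result was not tested.

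Hexokinases trap glucose in the cell as glucose 6-phosphate. Hk2, the inducible isoform, read 1018, 1913 and 1108 in EBF1 arrays against 429.9, 2291 and 675 in set 1 controls, and 598, 843 and 797 in PAX5 arrays against 466, 2297 and 743 in set 2 controls. The controls alone spanned the values of every other sample. The changes were 0.55 (SE 0.53, adjusted p = 0.75) with EBF1 and -0.40 (SE 0.59, adjusted p = 0.91) with PAX5, and the PAX5 value turned to 0.24 without control array 2. The EBF1 value was 1.24 without control array 2, 0.05 without control array 1 and 0.27 without EBF1 array 2. With the arrays numbered 2 of control and EBF1 both left out, it was 0.96 (limma unadjusted p = 0.0084, adjusted p = 0.33). With equal numbers as a block it was 0.55 (limma unadjusted p = 0.098, adjusted p = 0.42). Hk1, the constitutive isoform, read 655, 601 and 700.3 in EBF1 arrays against 814, 708 and 702 in set 1 controls, and 625, 574 and 574 in PAX5 arrays against 859, 719 and 744 in set 2 controls. Both transduced groups lay below their controls, at -0.18 (adjusted p = 0.61) with EBF1 and -0.36 (adjusted p = 0.42) with PAX5. The dimmer Hk1 probe set lay lower still, at -0.39 and -0.60, the PAX5 value with an adjusted p of 0.07 over all probe sets. Hk3, known from myeloid cells, read 207, 212 and 221 in EBF1 arrays against 179, 213 and 199 in set 1 controls, and 192, 219 and 213 in PAX5 arrays against 194, 220.3 and 225 in set 2 controls. Its changes were 0.11 and -0.06. Summed myeloid markers were 378 to 738 in EBF1 arrays against 878 to 2166 in set 1 controls, and 986 to 1638 in PAX5 arrays against 1421 to 2648 in set 2 controls. Of the 6 markers, though, 3 were higher and 3 lower in each comparison, with median log2 changes of -0.10 with EBF1 and -0.03 with PAX5. Their part in the hexokinase values was not tested.

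Phosphofructokinase commits sugar to glycolysis, and its 3 isoforms were all measured. Pfkp, the platelet-type isoform, read 235, 205 and 197 in PAX5 arrays, against 311, 927 and 442 in set 2 controls, so that every PAX5 array was below every control. Its log2 change of -1.16 (SE 0.47, adjusted p = 0.49) did not pass, with a 95% interval of -2.24 to -0.08, and it was -0.73 without control array 2. The other Pfkp probe sets gave -0.996 and -1.25. With EBF1 it read 351, 802 and 343, against 303, 912 and 416 in set 1 controls, a change of -0.08. Pfkm, the muscle-type isoform, read 257, 366 and 299.5 in EBF1 arrays against 372, 611 and 388 in set 1 controls, and 353, 359 and 346 in PAX5 arrays against 405, 628 and 441 in set 2 controls. It lay below all controls of its set in both, at -0.53 (SE 0.19, adjusted p = 0.35) with EBF1 and -0.44 (SE 0.22, adjusted p = 0.6) with PAX5. Without control array 2 these were -0.30 and -0.25. Pfkl, the liver-type isoform, read 709, 1551 and 807 in EBF1 arrays against 513, 1406 and 739.7 in set 1 controls, and 506, 747 and 682 in PAX5 arrays against 552, 1413 and 821 in set 2 controls. Its changes were 0.24 with EBF1 and -0.51 with PAX5, with array 2 highest in the EBF1 and both control groups. The EBF1 value was 0.63 without control array 2, -0.09 without control array 1 and -0.10 without EBF1 array 2. With the arrays numbered 2 of control and EBF1 both left out, it was 0.29 (limma unadjusted p = 0.28, adjusted p = 0.72). With equal numbers as a block it was 0.24 (limma unadjusted p = 0.098, adjusted p = 0.42). The PAX5 value was -0.16 without control array 2 and -0.27 without PAX5 array 1.

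Lower glycolysis held the gene that passed. Eno2, the enolase isoform known from neurons, read 114, 104 and 75.7 in PAX5 arrays 1, 2 and 3, against 21.1, 12.8 and 26.5 in the set 2 controls. All PAX5 arrays were above all controls of the set. Eno2 rose by 1.71 (SE 0.23, adjusted p = 0.014) in log2, a 3.27-fold ratio on that scale with a 95% interval of 1.18 to 2.24 in log2. With EBF1 it read 21.4, 24.9 and 36.8, against 36.4, 34.6 and 75.3 in set 1 controls, a change of -0.53 (SE 0.21, adjusted p = 0.38). The difference of the changes was -2.24 (SE 0.23, adjusted p = 0.0026). Eno2 is dim, with 1 probe set. Control arrays of equal number, counted as 1 hybridisation each, read 36.4, 34.6 and 75.3 in set 1 but 21.1, 12.8 and 26.5 in set 2. The mean offset was -0.81 in log2, so PAX5 array 3 at 75.7 is level with set 1 control array 3 at 75.3.

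The Eno2 call with PAX5 was lost without control array 1 (1.74, adjusted p = 0.052), without PAX5 array 1 (1.56, adjusted p = 0.24), with an added constant of 1 (2.32, adjusted p = 0.053) and without the arrays numbered 2 of control and EBF1 (1.55, adjusted p = 0.095). The call on the difference was lost without PAX5 array 1 (-2.08, adjusted p = 0.062). Over 17 alternatives the PAX5 change ran from 0.97 (an added constant of 64) to 2.32 (a constant of 1), and 13 kept the call. Natural killer markers (3 of 4 measured) summed to 1272 to 2162 in PAX5 arrays against 469 to 899 in set 2 controls. They summed to 134 to 449 in EBF1 arrays against 422 to 867 in set 1 controls. With PAX5 2 of the 3 were higher and 1 lower (-0.18), and with EBF1 all 3 were lower. In either comparison 0 passed limma's test, while the difference of the changes passed for 2 of these markers. Their part in the Eno2 result was not tested.

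**Figure D3:**
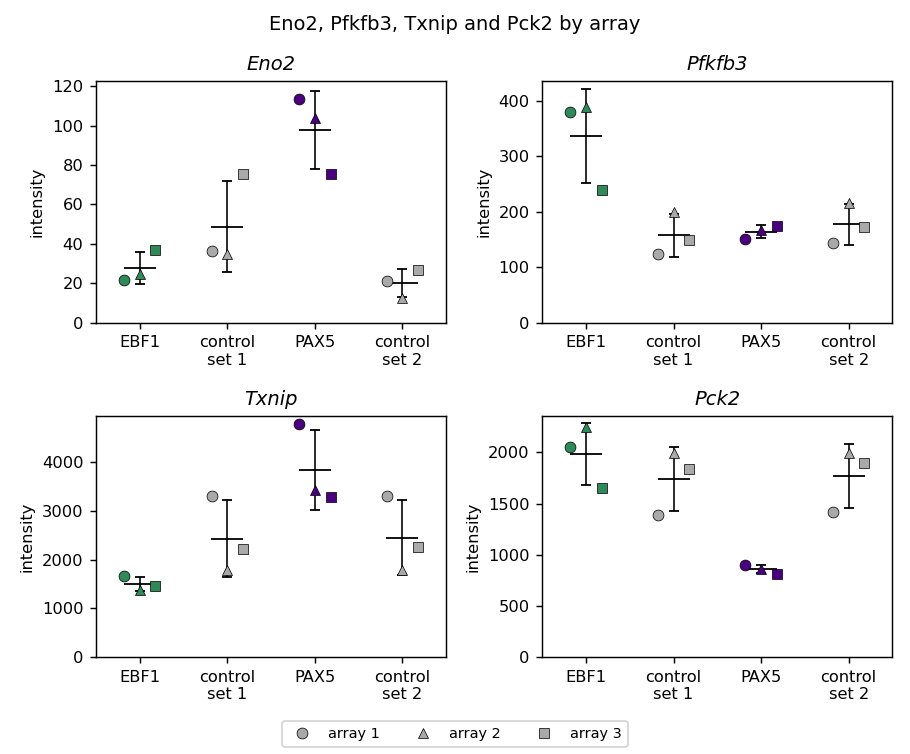
Intensity of Eno2, Pfkfb3, Txnip and Pck2 on each array, by group, with bars for the mean and SD over 3 arrays (PAX5 arrays 2 and 3 were counted as 1 hybridisation in the tests). Eno2 is high on the PAX5 arrays, at 75.7 to 114, and Pfkfb3 on the EBF1 arrays, at 239 to 389, each above the controls of its set.

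Aldolases split the 6-carbon sugar. Aldoa, the abundant isoform, read 4024, 6777 and 4110.01 in EBF1 arrays against 4338, 6959 and 4773 in set 1 controls, and 3535, 3653 and 3639.7 in PAX5 arrays against 4253, 6726 and 4649 in set 2 controls. Every PAX5 array was below every control, at -0.51 (SE 0.27, adjusted p = 0.63), and the EBF1 change was -0.12. Without control array 2 they were -0.31 with PAX5 and 0.08 with EBF1. Their difference of 0.39 was 0.14 without EBF1 array 2. Aldoc, known from brain, was dim: it read 67, 74.5 and 82.6 in EBF1 arrays against 62.1, 59 and 50.8 in set 1 controls, and 68.1, 63.4 and 69.5 in PAX5 arrays against 71.9, 66.6 and 61.3 in set 2 controls. The EBF1 arrays were all above the controls, at 0.31 (SE 0.11, adjusted p = 0.36), but the dimmer Aldoc probe set pointed the other way at -0.46. The PAX5 change was 0.01.

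Tpi1, Pgk1, Pgam1 and Pkm, which carry triose phosphate on to pyruvate, were all bright. Their log2 changes with EBF1 lay between -0.03 (Pgk1) and 0.02 (Pgam1), and with PAX5 between -0.54 (Pkm) and -0.28 (Pgam1), with 0 of the 4 past the test. Pgk1, which makes ATP in this stretch, read 4283, 5088 and 5019 in PAX5 arrays against 5136, 7762 and 6523 in set 2 controls, with no overlap and a change of -0.45 (SE 0.23, adjusted p = 0.61). Pkm, the last step to pyruvate, read 3458, 5123 and 3885 in EBF1 arrays against 2996, 4762 and 4898 in set 1 controls, and 2399.7, 3203 and 3150.04 in PAX5 arrays against 2965, 4663 and 4719 in set 2 controls. Its PAX5 change was -0.54 (SE 0.26, adjusted p = 0.56), and the ranges overlapped.

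At the fork from pyruvate, 0 of 6 genes passed in any comparison. Ldha, the lactate-forming subunit, read 7727, 8776 and 7837 in EBF1 arrays against 6877, 8734 and 8493 in set 1 controls, and 6686, 7436 and 7178 in PAX5 arrays against 6770.2, 8499 and 8075 in set 2 controls. The groups overlapped, at 0.02 with EBF1 and -0.15 with PAX5. Ldhb, the heart-type subunit, read 256, 177 and 279.6 in EBF1 arrays against 169, 189 and 191 in set 1 controls, and 209, 248 and 258 in PAX5 arrays against 176, 190.5 and 211 in set 2 controls. EBF1 array 2 lay inside the control range while arrays 1 and 3 lay above it, PAX5 array 1 lay inside and PAX5 arrays 2 and 3 above, and the changes were 0.33 (adjusted p = 0.52) with EBF1 and 0.24 (adjusted p = 0.8) with PAX5. Dlat, a core subunit of pyruvate dehydrogenase, read 778, 946 and 674 in EBF1 arrays against 587, 798 and 510.2 in set 1 controls, and 613, 715 and 664 in PAX5 arrays against 635, 819 and 578 in set 2 controls. Its EBF1 change was 0.34 (SE 0.18, adjusted p = 0.52), its PAX5 change -0.04 and their difference 0.39, and the groups overlapped. Each EBF1 array was above the control array of its own number, and with equal numbers as a block the EBF1 change had an unadjusted p of 0.018 (adjusted p = 0.26). Pdha1 and Pdhb, the first subunits of the complex, stood at -0.05 and 0.06 with EBF1 and at 0.05 and 0.00 with PAX5. Pdk1, the kinase that shuts the complex, read 2595, 3664 and 1865 in EBF1 arrays against 1708, 3201 and 1861 in set 1 controls, and 2138, 2354 and 2217 in PAX5 arrays against 1754, 3204 and 1932 in set 2 controls. The groups overlapped, with array 2 highest of the EBF1 and control arrays, and the EBF1 change was 0.27 while the PAX5 mean was level with the controls.

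The citric acid cycle stayed close to the controls. All 12 genes (Cs, Idh2, Idh3a, Idh3b, Idh3g, Ogdh, Suclg1, Sdha, Sdhb, Fh1, Mdh1 and Mdh2) lay within 0.5 in log2 of the controls in both comparisons, at -0.15 to 0.16 with EBF1 and -0.30 to 0.01 with PAX5. Their 95% intervals, each for 1 gene and the probe set used, together reached from -0.42 to 0.55 with EBF1 and from -0.57 to 0.34 with PAX5. They bound what these probe sets could miss gene by gene, not what other probe sets of the same genes show. With PAX5, 11 of 12 were lower, at a median of -0.09. Idh2, the mitochondrial NADP-dependent isocitrate dehydrogenase, read 3119, 3454 and 3239 in EBF1 arrays against 3258, 3567 and 3466 in set 1 controls, and 2577, 2958 and 2822 in PAX5 arrays against 3198, 3512 and 3383 in set 2 controls. Every PAX5 array was below every control, at -0.30 (SE 0.12, adjusted p = 0.47). The dimmer Idh2 probe set stood at 0.46 with EBF1, against -0.07 for the one used, and at -0.17 with PAX5. Idh3a, the catalytic subunit of the NAD-dependent enzyme, read 2855, 3357 and 2732 in EBF1 arrays against 2170.3, 3354 and 2573 in set 1 controls, and 2304, 2814 and 2581 in PAX5 arrays against 2197, 3334 and 2590.1 in set 2 controls. Its changes of 0.16 and -0.10 did not pass, the groups overlapped, and 1 of its other 3 probe sets disagreed, at 0.90 with PAX5 (adjusted p = 0.36 over all probe sets). Suclg1, of succinyl-CoA ligase, and Sdha, the flavoprotein of succinate dehydrogenase, were below every control with PAX5, at -0.22 and -0.11. Sdhb, the iron-sulphur subunit, read 3540.1, 4150.2 and 3303 in EBF1 arrays against 3233, 3761 and 3525 in set 1 controls, and 2809.9, 3383 and 3093 in PAX5 arrays against 3203, 3704 and 3500.3 in set 2 controls. These groups overlapped too, and the difference of the changes was 0.26. Fh1, fumarase, was above every control with EBF1 by 0.07.

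The 3 measured genes of the pentose phosphate pathway stayed close to the controls as well, with 0 past the test. Pgd, the second dehydrogenase, read 2552, 2765 and 2845 in EBF1 arrays against 2449, 2651 and 2353 in set 1 controls, and 2309, 2619.9 and 2578 in PAX5 arrays against 2440.00, 2636 and 2379 in set 2 controls, at 0.13 with EBF1 and -0.02 with PAX5. Taldo1, transaldolase, read 2333, 2931 and 2139 in EBF1 arrays against 2269, 2789 and 2264 in set 1 controls, and 2321, 2461 and 2429 in PAX5 arrays against 2285, 2786 and 2298 in set 2 controls, at 0.01 with EBF1 and -0.04 with PAX5. Tkt, transketolase, stood at 0.02 with EBF1 and -0.03 with PAX5. The groups overlapped in all 3, and the 95% intervals together reached from -0.33 to 0.38 with EBF1 and from -0.42 to 0.34 with PAX5.

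Several of these genes varied widely within groups. Slc2a1, Hk2, Pfkl, Pfkp, Aldoa and Pdk1 were each more than 0.5 in log2 higher on array 2 than on the mean of arrays 1 and 3, in the EBF1 group and in the controls alike. These are 6 of 39 genes (15.4%), against 1.36% of all genes. The excess was 0.84 in EBF1 cells and 2.0 in controls for Hk2, 0.98 and 1.67 for Slc2a1, and 0.73 and 0.82 for Pdk1. Array 2 gave the highest EBF1 value in 26 of 39 genes (66.7%, against 32.5% of all genes) and the highest control value also in 26 of 39 (66.7%, against 34.5%). By role the median control excess was 0.61 in upper glycolysis, 0.55 in carriers, 0.31 in lower glycolysis and 0.06 in the citric acid cycle, beside 0.00 over all genes. The median level of the lymphoid progenitor markers, in log2 relative to the control mean, was -0.22, -0.51 and -0.20 on EBF1 arrays 1, 2 and 3, against 0.27, -0.51 and 0.26 on the control arrays. That of the stroma markers was 0.61, -0.08 and 2.06 on EBF1 arrays, against 0.30, -0.29 and 4e-04 on the control arrays. Array 2 was the lowest of both groups in both lists, and their part in the array 2 values was not tested. The labels name no batch, and what arrays of equal number share is not given. The PAX5 samples did not reach such values: Hk2 read 598, 843 and 797 in PAX5 arrays, against 2297 on set 2 control array 2.

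**Figure D4:**
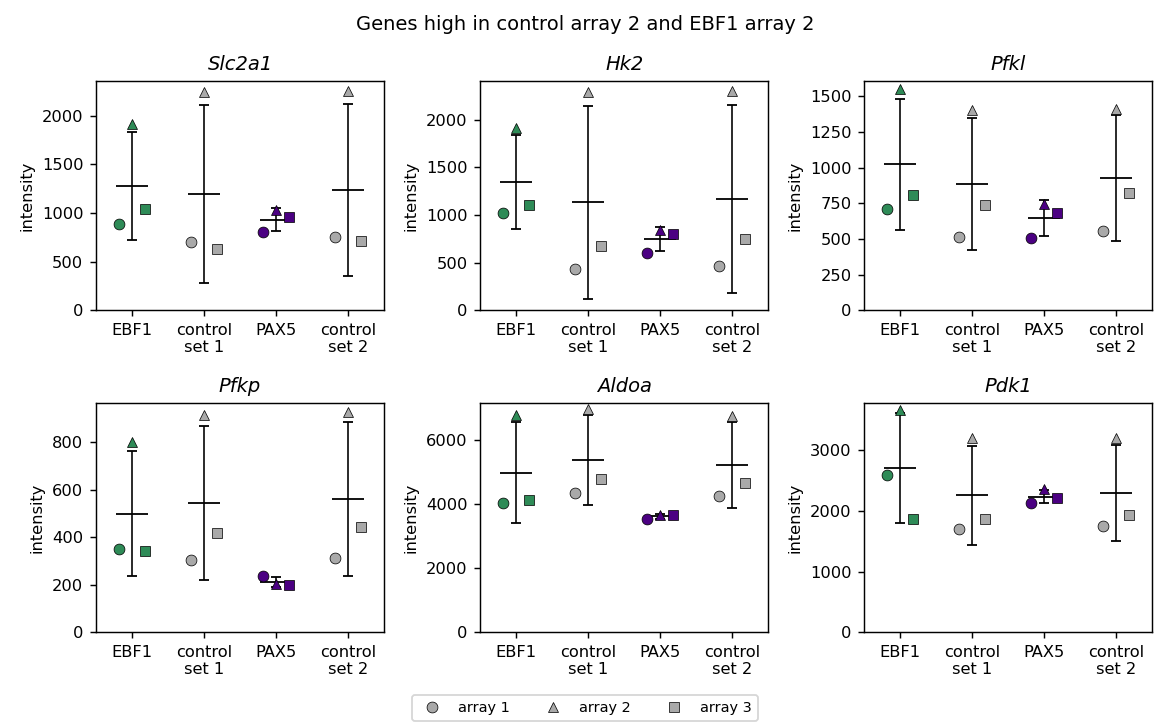
Intensity of the 6 genes high on array 2, by array (circle 1, triangle 2, square 3) and group, with bars for the mean and SD over 3 arrays (PAX5 arrays 2 and 3 were counted as 1 hybridisation in the tests). The triangles stand apart at the top of the EBF1 and both control groups, at 1913 in EBF1 cells and 2291 in set 1 controls for Hk2, but not in the PAX5 group.

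Promoters were read for these genes because they were high together, and for Eno2 because it passed the test. Each sequence is the 250 bases before the annotated start, from RefSeq on GRCm38.p6, 5′ to 3′ on the gene's strand. Capitals mark ACGTG or GCGTG on either strand (CACGT or CACGC when read on the other), the letters of the HIF1 core element. For Pdk1 and Aldoa, with several starts listed, the most upstream is shown.
Slc2a1 (chr4:119108495-119108744, + strand): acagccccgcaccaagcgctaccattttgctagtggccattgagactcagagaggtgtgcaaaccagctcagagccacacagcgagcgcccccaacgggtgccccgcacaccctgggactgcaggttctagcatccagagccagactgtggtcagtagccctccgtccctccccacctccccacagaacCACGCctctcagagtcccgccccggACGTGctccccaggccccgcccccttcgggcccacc
Hk2 (chr6:82774455-82774704, - strand): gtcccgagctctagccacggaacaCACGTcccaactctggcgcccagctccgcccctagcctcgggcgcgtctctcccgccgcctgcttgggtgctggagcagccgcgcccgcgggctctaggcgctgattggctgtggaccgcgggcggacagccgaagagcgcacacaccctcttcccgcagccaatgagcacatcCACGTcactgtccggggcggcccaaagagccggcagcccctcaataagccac
Pfkl (chr10:78009808-78010057, - strand): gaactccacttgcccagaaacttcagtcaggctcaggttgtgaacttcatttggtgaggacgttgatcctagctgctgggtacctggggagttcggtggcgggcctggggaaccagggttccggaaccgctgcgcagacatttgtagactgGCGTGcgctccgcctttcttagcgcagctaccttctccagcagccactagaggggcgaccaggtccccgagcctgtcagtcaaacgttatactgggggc
Pfkp (chr13:6648772-6649021, - strand): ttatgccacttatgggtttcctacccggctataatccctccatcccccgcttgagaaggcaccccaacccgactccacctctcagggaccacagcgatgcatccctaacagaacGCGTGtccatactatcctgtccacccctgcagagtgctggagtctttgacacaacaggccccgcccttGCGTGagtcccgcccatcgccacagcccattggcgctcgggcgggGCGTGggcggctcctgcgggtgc
Aldoa (chr7:126800448-126800697, - strand): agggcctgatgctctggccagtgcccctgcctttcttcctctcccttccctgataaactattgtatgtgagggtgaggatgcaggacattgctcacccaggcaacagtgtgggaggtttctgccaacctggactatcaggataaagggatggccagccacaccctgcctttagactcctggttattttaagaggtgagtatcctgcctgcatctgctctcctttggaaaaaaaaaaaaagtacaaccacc
Pdk1 (chr2:71872974-71873223, + strand): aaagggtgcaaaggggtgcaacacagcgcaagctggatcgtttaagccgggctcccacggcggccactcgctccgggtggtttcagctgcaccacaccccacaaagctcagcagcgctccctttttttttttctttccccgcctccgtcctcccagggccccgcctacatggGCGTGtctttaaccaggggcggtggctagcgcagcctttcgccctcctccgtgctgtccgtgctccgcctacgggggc
Eno2 (chr6:124769674-124769923, - strand): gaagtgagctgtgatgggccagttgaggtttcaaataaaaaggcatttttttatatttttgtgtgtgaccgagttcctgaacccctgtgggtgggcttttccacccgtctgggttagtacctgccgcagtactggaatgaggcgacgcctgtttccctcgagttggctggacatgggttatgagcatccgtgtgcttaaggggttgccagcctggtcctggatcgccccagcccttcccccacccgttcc

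The letters ACGTG or GCGTG occurred in 43 of 54 promoters of the 37 genes with an entry (79.6%), against 38.6% of all 32851 promoters of the same length. ACGTG alone, which also lies inside the E-box CACGTG that Myc binds, occurred in 46.3% against 16.6%, and GCGTG in 55.6% against 28.2%. CACGTG itself occurred in 13% against 6.02%. The core of the EBF1 motif (TCCC and GGGA with any 2 bases between them) occurred in 0 of 54 promoters, against 0.779% of all. Median GC content was 60% in these promoters and 52.4% in all, and its part in these shares was not tested. The Eno2 and Aldoa windows shown held neither ACGTG nor GCGTG. A match describes the sequence and does not show binding.

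Related genes outside the 43 were counted from lists of other pathway enzymes and of regulators, 75 of 81 of them measured. With EBF1 and with PAX5, 0 of 75 passed limma's test, where 0.22% of all genes did with EBF1 and 0.874% with PAX5. At an unadjusted p under 0.05 with EBF1 (6.29% of all genes higher and 5.33% lower), 2 were higher and 3 lower of 21 other glycolysis genes, 0 of 23 pyruvate and cycle genes, 1 higher and 1 lower of 9 pentose phosphate genes, and 1 higher and 3 lower of 22 regulators. With PAX5 (5.33% higher and 4.13% lower), 0 were higher and 5 lower of the other glycolysis genes, 2 higher and 2 lower of the pyruvate and cycle genes, 0 of the pentose phosphate genes, and 4 higher and 0 lower of the regulators. The medians of the 4 lists lay between -0.01 and 0.08 with EBF1 and between -0.10 and 0.10 with PAX5. The difference of the changes passed for Pck2 and Txnip, 2 of 75, against 1.94% of all genes. Pck2, which makes phosphoenolpyruvate in mitochondria, read 2048, 2246 and 1652 in EBF1 arrays against 1386, 1995 and 1839.7 in set 1 controls, and 901, 863 and 817 in PAX5 arrays against 1414, 1993 and 1894 in set 2 controls. All PAX5 arrays were below all controls, at -0.99 (SE 0.19, adjusted p = 0.062), and the difference was 1.18 (SE 0.19, adjusted p = 0.02). Txnip, which restrains glucose uptake, read 1669, 1383 and 1463 in EBF1 arrays against 3307, 1781 and 2218 in set 1 controls, and 4784, 3437 and 3289 in PAX5 arrays against 3300.5, 1789.9 and 2270.3 in set 2 controls. Its changes of -0.65 (adjusted p = 0.33) with EBF1 and 0.75 (adjusted p = 0.37) with PAX5 did not pass singly, and the difference was -1.40 (SE 0.26, adjusted p = 0.036). The Pck2 difference did not pass without EBF1 array 1, at 1.16 (adjusted p = 0.068), or without EBF1 array 2, at 1.09 (adjusted p = 0.067). Nor did it pass with equal numbers as a block, at 1.20 (adjusted p = 0.079), or with an added constant of 1, at 1.20 (adjusted p = 0.053). The same held without the arrays numbered 2 of control and EBF1, at 1.10 (adjusted p = 0.083). Without PAX5 array 1, which leaves 1 PAX5 sample, the Pck2 difference was 1.23. The Txnip difference did not pass without EBF1 array 1, 2 or 3, at -1.47, -1.34 and -1.38, or without control array 3, at -1.41 (adjusted p = 0.062). Nor did it pass with an added constant of 1, at -1.41 (adjusted p = 0.076), or with 12 arrays counted separately, at -1.31 (adjusted p = 0.17). The same held without the arrays numbered 2 of control and EBF1, at -1.34 (adjusted p = 0.092). Without PAX5 array 1, which leaves 1 PAX5 sample, the Txnip difference was -1.14.

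The genes farthest from the controls in each of those lists did not pass. Eno3, the muscle enolase, stood at -0.81 (adjusted p = 0.22) with EBF1 and -0.99 (adjusted p = 0.18) with PAX5. Pdp1, the phosphatase that reopens pyruvate dehydrogenase, stood at 0.40 with EBF1 and 1.25 (adjusted p = 0.054) with PAX5. Slc2a6, a lysosomal hexose carrier, had a difference of -0.98. In the pentose phosphate list, H6pd stood at -0.52 with EBF1, Rpe at 0.26 with PAX5, and Prps1, which makes the ribose donor of nucleotides, differed by 0.75. Among regulators, Mycn stood at -1.84 (adjusted p = 0.087) with EBF1, and Egln3, an oxygen sensor, at -1.22 with PAX5 and 1.95 (adjusted p = 0.19) for the difference. Of the stroma markers 14 of 15 were measured, with a median change of 0.95 with EBF1 and 0 past the test. T cell markers (4 of 5 measured) summed to 148 to 162 in EBF1 arrays against 132 to 209 in set 1 controls, and to 147 to 186 in PAX5 arrays against 137 to 246 in set 2 controls. Erythroid markers (2 of 4) summed to 78.7 to 101 in EBF1 arrays against 98.6 to 104 in set 1 controls, and to 83.9 to 115 in PAX5 arrays against 104 to 123 in set 2 controls.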

How the data were processed

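The authors deposited 1 linear intensity for each probe set and array. Their probe summarisation and array normalization were not given in the sources used here. Biotin-labelled cRNA was made with Affymetrix's standard procedure, per the labels. Of 45037 probe sets, 34945 carried 1 symbol in the platform annotation, 932 several and 9160 none. Members and gene lists were chosen with earlier results of these data known.

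Intensities were analysed as log2(intensity + 16) with the brightest 1-symbol probe set of each gene. The gene-wise offset between control sets was removed, and arrays counted as 1 hybridisation were averaged (checked over 12889 bright probe sets). All 8 samples were fitted by group, without pairs, with limma 3.58.1 (lmFit and eBayes, 5 residual and 3.53 prior degrees of freedom). This ran in R 4.3.3, with the data.table package (version 1.17.8). p-values were adjusted by Benjamini-Hochberg over 18193 genes, at 0.05. The fit was tested on simulated data with independent noise in each sample. That simulation held no effect shared by EBF1 and control arrays of equal number, so it does not bear on such effects. Figures used Python 3.11.15, pandas 2.3.3, numpy 2.4.6 and matplotlib 3.10.9.

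Per-array values are given for members past either threshold in a comparison, the largest change per role, and isoform families; of the other pathway and regulator lists, genes past the adjusted threshold and the largest change per list. Deviations of EBF1 and control arrays of equal number correlated at 0.21, 0.40 and 0.22 over all genes. Over bright probe sets they correlated at 0.345, 0.608 and 0.391. The main fit did not pair these arrays, and only the block took the numbers as pairs. For PAX5 the deviations correlated at 0.24, 0.08 and 0.18 over all genes and at 0.411, 0.194 and 0.333 over bright probe sets. PAX5 arrays 2 and 3, if they are 1 hybridisation, cannot both be paired. Counts with the numbers as a block are given for all 3 comparisons. Precision is limited by how few arrays there are.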

Additional observations from a re-analysis of the deposited data

Results flagged for a closer look

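For 3 genes the EBF1 and PAX5 changes differed by a test of the difference itself (limma, adjusted over all genes). Eno2 differed by -2.24 (SE 0.23, adjusted p = 0.0026), at -0.53 with EBF1 and 1.71 with PAX5. Pck2 differed by 1.18 (SE 0.19, adjusted p = 0.02), at 0.19 with EBF1 and -0.99 with PAX5. Txnip differed by -1.40 (SE 0.26, adjusted p = 0.036), at -0.65 with EBF1 and 0.75 with PAX5. Eno2 kept this call in 16 of 17 alternatives, Pck2 in at least 11 of 18 and Txnip in 10 of 18. These counts used adjusted p-values rounded to 2 digits. All 3 genes kept their sign in every alternative run.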

How the results depend on the processing

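Eno2, Pck2 and Txnip kept the direction of their difference in every alternative run. Genes past the test with EBF1 (40), with PAX5 (159) and for the difference (353) became 23, 84 and 194 with an added constant of 1, 201, 357 and 156 with 12 arrays counted separately, 88, 301 and 879 with PAX5 arrays 2 and 3 counted separately, 10, 251 and 207 with the replicate block, and 6, 66 and 108 with the arrays numbered 2 of control and EBF1 left out, an alternative chosen after seeing the data. With EBF1 there were 10 with an added constant of 64 and 16 with a filter on dim genes. Leaving out each replicate in turn gave 10 to 406 with EBF1, 28 to 176 with PAX5 and 55 to 575 for the difference.

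Of the 39 members, 1 passed with EBF1 (Pfkfb3, adjusted p = 0.048) with 12 arrays counted separately, and 0 with PAX5 under an added constant of 1, under the dim filter, which removes Eno2, and without the arrays numbered 2. Under the dim filter Pfkfb3 passed for the difference (1.13, adjusted p = 0.043). For the difference 2 passed with PAX5 arrays counted separately (Eno2 and Pfkfb3). Leaving out each replicate gave 0 to 1 with EBF1, 0 to 1 with PAX5 and 0 to 2 for the difference. With the replicate block, the Eno2 change with PAX5 was 1.66 (adjusted p = 0.04, with PAX5 arrays 2 and 3 entered separately). The Pck2 difference was 1.20 (adjusted p = 0.079, with 12 arrays entered separately), which ended the Pck2 call. The block changed no adjusted call of a member. The sign held in every alternative for 18 members with EBF1, 24 with PAX5 and 31 for the difference. With 3 EBF1, 2 PAX5 and 3 control samples, several 95% intervals reach over 1 log2 unit from the controls. Those of Hk2, Slc2a1 and Pfkl in both comparisons, of Pfkp with EBF1, and of Aldoa and Pkm with PAX5, also hold 0. They exclude neither no change nor a change of that size. The Pfkp interval with PAX5, -2.24 to -0.08, does not hold 0, though its limma adjusted p was 0.49.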

Other observations

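Genes known to be induced by low oxygen were looked up after the spread of array 2 was seen, so they are described without a test. Of 16 listed, 14 were measured. Their median excess of array 2 over arrays 1 and 3 was 0.48 in log2 in EBF1 cells and 0.69 in controls, and 6 of 14 (42.9%) exceeded 0.5 in both, against 1.36% of all genes. Ak4, an adenylate kinase of mitochondria, read 147, 810.2 and 192 in EBF1 arrays 1, 2 and 3, against 157, 781 and 195 in set 1 controls. Bnip3, a mitophagy receptor, read 1416, 3587 and 966 in EBF1 arrays, against 1106, 3333 and 1514 in set 1 controls. Egln3, the oxygen sensor, read 148, 543 and 152 in EBF1 arrays, against 60.7, 322 and 114 in set 1 controls. Array 2 was the highest of both groups in these 3 genes. In PAX5 arrays 1, 2 and 3, Bnip3 read 913, 1083 and 1069, against 1155, 3329.9 and 1554 in set 2 controls. Ndrg1, another gene of the list, read 1308, 1003 and 471 in EBF1 arrays against 484, 918 and 279.6 in set 1 controls, and 171, 147 and 154 in PAX5 arrays against 526, 939 and 320.4 in set 2 controls, with every PAX5 array below every control. Vegfa, a growth factor for vessels, had an excess of 0.19 in EBF1 cells and 0.13 in controls.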
